A study of Mus musculus with 15 samples.

Results

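The keratin genes of mouse colon were described across 5 genotype and tissue groups. All genes whose single annotated symbol is Krt followed by digits were taken, with the probe set of highest mean over the 15 arrays standing for each gene, which gave 44 members of 18193 genes measured. By the classes of the protein family, 5 are simple-epithelial keratins, 16 are keratins of stratified or squamous epithelia, 18 are keratins of the hair shaft and its root sheath, and 5 (Krt23, Krt24, Krt80, Krt88 and Krt222) were put in no class. The members divide into 23 type I and 21 type II genes, and 8 of them have more than 1 probe set.

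Total RNA was taken from the colon of male mice aged 3 months, littermates on a mixed background of C57BL/6 and 129, and 3 arrays were hybridised per group. The genotypes were APC+/+/Olfm4+/+ (wild type), APC+/-/OLFM4(+/+) (APC mutant, 1 allele of the Wnt pathway's tumour suppressor lost), APC+/+/Olfm4-/- (Olfm4 mutant, without the secreted glycoprotein of intestinal crypts), and APC+/-/Olfm4-/-, from which the colon next to a tumour (adjacent) and the tumour itself were taken. By the titles the adjacent and tumour arrays come from 2 animals, replicate 1 from one and replicates 2 and 3 from the other, although the design text gives 3 mice for each category. The number in the title of Olfm4 mutant replicate 3 joins the last digits of the other animals of that group, and whether it is a pool is not given in the sources used here. Both double mutant tissues carry both mutations, so no tumour of a single mutant was measured.

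Keratins are the intermediate filament proteins of epithelial cells. A filament needs a type I and a type II chain, and the chains a cell makes mark the kind of epithelium it belongs to. Krt8 with Krt18, Krt19 and Krt20 builds the filaments of the intestinal lining, where Krt20 marks mature surface cells. Krt5 with Krt14 marks the basal layer of stratified epithelia, Krt4 with Krt13 the upper layers of internal squamous linings, Krt6, Krt16 and Krt17 activated or wounded epidermis, and the hair keratins harden the hair shaft.

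The measured values are log2 expression from RMA, a normalization that puts all arrays on 1 distribution. Array medians lay between 6.35 and 6.47. The Olfm4 probe set read from 2.97 to 3.32 on all 15 arrays, wild type included, near the lowest value in the data of 2.56, so it does not check the labels. The 4 Apc probe sets disagree: from wild type to APC mutant their means went from 10.44 to 10.49, from 8.43 to 8.37, from 10.18 to 10.61 and from 6.62 to 6.56. The difference between the 3-prime and the 5-prime probe sets of the 4 bacterial control RNAs dap, lys, phe and thr, which grows where copies of the RNA are less complete, had means of 1.99 (SD 0.083) in wild type, 2.16 (SD 0.20) in APC mutant, 2.64 (SD 0.52) in Olfm4 mutant, 4.10 (SD 0.30) in adjacent and 5.01 (SD 0.26) in tumour arrays, n = 3 each. This spike-in difference therefore rises in the order of the groups and cannot be told apart from group in most comparisons.

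In tumour tissue 11 keratins were higher and 4 lower than in adjacent tissue. The unclassed Krt23 rose 11.2-fold, the basal Krt14 6.58-fold and the wound-associated Krt17 5.53-fold, and the hair keratins Krt32, Krt35, Krt36 and Krt75 rose between 2.15-fold and 4.29-fold. Krt20, the keratin of mature colonocytes, was 2.06-fold lower. The major pair Krt8 and Krt18 did not pass the test, a limma adjusted p under 0.05. Of all 18193 genes 28.1% passed the same test, 14.3% higher and 13.8% lower, and of the keratins 34.1% did, 25.0% higher and 9.09% lower, so the family as a whole stood near the background. The median log2 difference over the 44 members was 0.05, against 0.0019 over all genes.

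**Figure D1:**
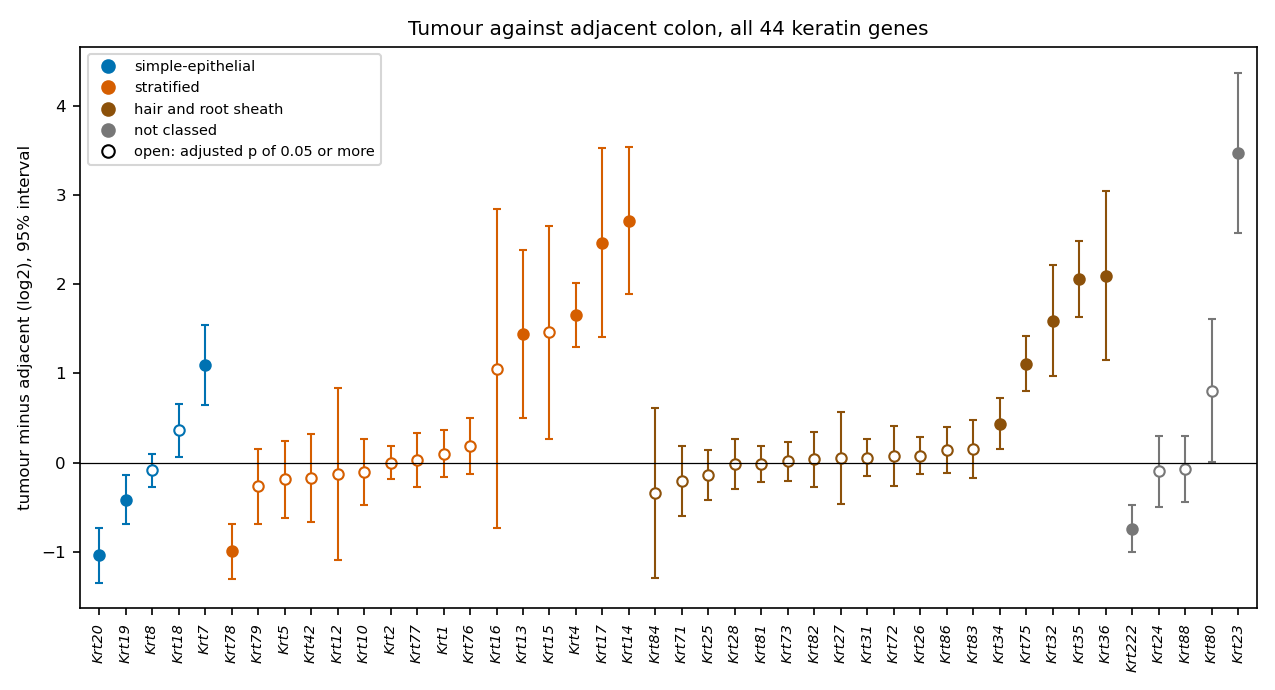
Log2 difference between tumour and adjacent colon for each of the 44 keratin genes (y axis), with the 95% interval of the fit, 3 arrays per group; genes are ordered by class and then by difference on the x axis, filled points have a limma adjusted p under 0.05 and open points do not. Krt23 at 3.48 is the highest and Krt20 at -1.04 the lowest, and most hair and stratified members lie near 0.

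The type I genes lie together on chromosome 11 and the type II genes on chromosome 15, with Krt18 as the type I gene of the chromosome 15 cluster. In tumour against adjacent tissue 8 of 22 chromosome 11 members rose and 3 fell, and 3 of 22 chromosome 15 members rose and 1 fell. Of all genes 14.3% were higher and 13.8% lower there, and a difference between the clusters was not tested. Some genes side by side moved together, such as Krt32, Krt35, Krt36 and Krt13, which all rose, and others did not. Krt20 and Krt23 are neighbours, and the first fell while the second rose most. The 250 bases before the RefSeq start are shown for these neighbours, for Krt7 as the simple keratin that rose and for Krt32 as a hair keratin that rose, from RefSeq on GRCm38.p6 and each on its own strand. Krt23 lies at chr11:99493121-99493370 (minus strand), Krt20 at chr11:99438154-99438403 (minus strand), Krt7 at chr15:101412153-101412402 (plus strand) and Krt32 at chr11:100088270-100088519 (minus strand). Capitals mark matches on either strand to 4 motifs. The TATA box was searched as TATAAA. The AP-1 site was searched as TGANTCA. The TCF/LEF site, named for the factors of Wnt signalling, was searched as CTTTGAT and also, with another last base, as CTTTGAA. The GC box was searched as GGGCGG. These patterns do not overlap one another in the printed windows.
Krt23: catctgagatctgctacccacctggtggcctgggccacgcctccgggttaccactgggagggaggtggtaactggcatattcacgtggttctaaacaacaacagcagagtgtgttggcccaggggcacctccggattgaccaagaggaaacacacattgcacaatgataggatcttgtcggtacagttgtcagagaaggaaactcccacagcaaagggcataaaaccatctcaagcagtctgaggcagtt
Krt20: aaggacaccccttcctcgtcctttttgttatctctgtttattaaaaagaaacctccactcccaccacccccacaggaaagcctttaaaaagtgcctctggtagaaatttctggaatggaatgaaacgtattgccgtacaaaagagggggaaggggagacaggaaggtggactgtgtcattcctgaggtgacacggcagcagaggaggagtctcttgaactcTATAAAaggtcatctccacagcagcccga
Krt7: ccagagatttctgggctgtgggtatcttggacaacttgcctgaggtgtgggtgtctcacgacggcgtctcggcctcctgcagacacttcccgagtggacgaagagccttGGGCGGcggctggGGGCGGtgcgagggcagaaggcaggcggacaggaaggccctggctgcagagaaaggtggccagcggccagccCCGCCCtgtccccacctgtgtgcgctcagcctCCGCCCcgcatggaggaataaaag
Krt32: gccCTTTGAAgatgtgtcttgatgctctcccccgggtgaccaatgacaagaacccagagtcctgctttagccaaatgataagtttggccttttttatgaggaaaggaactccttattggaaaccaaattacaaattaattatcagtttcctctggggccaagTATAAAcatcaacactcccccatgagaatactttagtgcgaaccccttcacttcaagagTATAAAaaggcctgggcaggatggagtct

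The Krt23 window held no match to any of these motifs. Krt20 has a TATA box 29 to 24 bases before the start, Krt7 has 4 GC boxes, and Krt32 has TATA boxes 88 to 83 and 29 to 24 bases before the start and a TCF/LEF match 247 to 241 bases before it. RefSeq entries were found for 31 of the 44 genes, in 32 windows, and the TATA box occurs in 15 of these (46.9%) against 12.4% of 32851 windows of the same length over all genes. The GC box occurs in 2 keratin windows (6.25%) against 32.7%, the TCF/LEF motif in 4 (12.5%) against 7.48%, and the AP-1 motif in 2 (6.25%) against 6.75%. Among the members with an entry the TATA box was found for 2 of 8 that rose in tumour, 1 of 2 that fell and 12 of 21 that did not pass the test. The TCF/LEF motif was found for 2 of 8 that rose (Krt32 and Krt34) and 2 of 21 that did not pass (Krt2 and Krt31). These matches describe the letters of the windows and were not tested against the expression data.

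Krt8 and Krt18 are the type II and type I chains that pair in the colon lining. The values of Krt8 were 14.14, 14.16 and 14.28 in wild type, 14.10, 14.21 and 14.18 in APC mutant, 14.16, 14.20 and 14.11 in Olfm4 mutant, 14.29, 14.22 and 14.23 in adjacent and 14.19, 14.18 and 14.11 in tumour arrays. Every tumour array lay under every adjacent array, but by little: the difference of -0.09 had a 95% interval from -0.27 to 0.10 (limma adjusted p = 0.51), and the other 2 Krt8 probe sets differed by -0.14 and -0.08. Krt18 had means of 14.26 (SD 0.23) in wild type, 14.08 (SD 0.19) in APC mutant, 13.94 (SD 0.068) in Olfm4 mutant, 13.76 (SD 0.18) in adjacent and 14.12 (SD 0.076) in tumour arrays. The difference for Krt18 between tumour and adjacent tissue was 0.36 (95% interval 0.06 to 0.66, adjusted p = 0.072), with the 3 tumour arrays at 14.19, 14.04 and 14.12 above the adjacent arrays at 13.95, 13.62 and 13.70. Krt18 passed in this comparison under cyclic loess, under a trend and robust prior and with animal as a random block. The simple keratins read from 11.44 to 14.45 while all genes reached 14.65, and whether bright probe sets compress differences was not tested.

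Krt20 separated the tumours from all other tissue. Its values were 13.21, 13.47 and 13.44 in wild type, 13.35, 13.44 and 13.11 in APC mutant, 13.26, 13.28 and 13.19 in Olfm4 mutant, 13.29, 13.24 and 13.25 in adjacent and 12.21, 12.52 and 11.92 in tumour arrays. The other 12 arrays lay within 13.11 to 13.47 and none overlapped the tumours. Krt20 fell by 1.04 on the log2 scale against adjacent tissue (SE 0.14, adjusted p = 0.00015) and by 1.16 against wild type (SE 0.14, adjusted p = 2.6e-05). Within the animals its tumour minus adjacent difference was -1.07 in the first and -1.03 in the second.

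Krt19, a type I keratin made along the intestinal crypt and surface, had group means that declined from wild type to tumour arrays. It read 14.28, 14.28 and 14.26 in wild type, 14.21, 14.26 and 14.06 in APC mutant, 14.03, 13.88 and 14.03 in Olfm4 mutant, 13.89, 13.86 and 13.55 in adjacent and 13.60, 13.21 and 13.23 in tumour arrays. Against wild type it fell by 0.51 in adjacent (SE 0.13, adjusted p = 0.011) and by 0.92 in tumour tissue (SE 0.13, adjusted p = 6.2e-05). Krt19 did not pass in APC mutant or Olfm4 mutant against wild type, nor in adjacent against Olfm4 mutant tissue (adjusted p = 0.43). Against adjacent tissue the tumours fell by a further 0.42 (SE 0.13, adjusted p = 0.026), although tumour replicate 1 at 13.60 lay above adjacent replicate 3 at 13.55. That last call was lost without adjacent replicate 1 or 2 or tumour replicate 2 or 3 (differences from -0.37 to -0.35, adjusted p up to 0.098) and under cyclic loess. The order of the 5 group means of Krt19 is the inverse of that of the spike-in difference, and with this difference as a covariate the tumour against adjacent value was -0.23 (adjusted p = 0.50).

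Krt7, a type II keratin of ducts and of other simple linings, was the simple keratin that rose. Its values were 12.44, 12.69 and 12.94 in wild type, 12.46, 12.48 and 11.81 in APC mutant, 11.90, 11.44 and 11.93 in Olfm4 mutant, 12.17, 11.62 and 11.99 in adjacent and 13.10, 12.99 and 12.98 in tumour arrays. The Olfm4 mutant and adjacent arrays, all without Olfm4, were low, and so was APC mutant replicate 3 at 11.81, which has Olfm4. The tumours, without Olfm4, were the highest arrays of all. Adjacent and APC mutant tissue differed by -0.33 (95% interval -0.78 to 0.13, limma adjusted p = 0.29). Krt7 was 2.14-fold higher in tumour than in adjacent tissue (log2 1.10, SE 0.21, adjusted p = 0.0016), while against wild type the tumours differed by 0.34 (95% interval -0.12 to 0.79, adjusted p = 0.21). Against wild type it fell by 0.93 in Olfm4 mutant (SE 0.21, adjusted p = 0.024) and by 0.76 in adjacent tissue (SE 0.21, adjusted p = 0.017), and the adjacent and Olfm4 mutant means of 11.93 and 11.75 differed by 0.17 (95% interval -0.28 to 0.63, adjusted p = 0.72). The fall in Olfm4 mutant was lost without wild type replicate 2 or 3 or Olfm4 mutant replicate 2 or 3 (adjusted p up to 0.10), and the fall in adjacent tissue without wild type replicate 3 or adjacent replicate 2 (adjusted p up to 0.075).

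**Figure D2:**
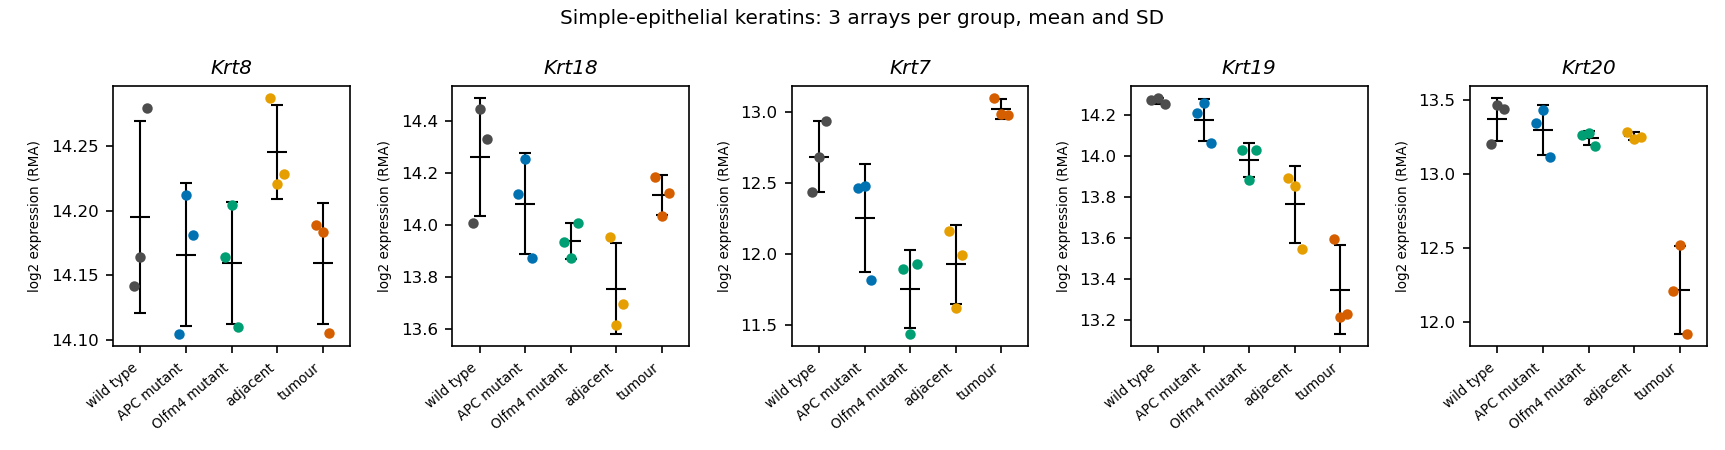
Log2 expression (RMA, y axis, a separate range for each gene) of the 5 simple-epithelial keratins in 5 groups; points are the 3 arrays, the bar is the mean and the whiskers the SD. Krt20 drops in tumour arrays alone, to a mean of 12.22. The Krt19 mean goes from 14.27 in wild type to 13.35 in tumour arrays, and Krt7 is highest in tumours at 13.02.

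Among the stratified keratins 4 of 16 (25%) rose in tumour against adjacent tissue (Krt4, Krt13, Krt14 and Krt17), against 14.3% of all genes. Krt78 fell (6.25%, against 13.8% of all genes), and the median difference over the 16 was 0.06. Krt14, the type I keratin of basal cells, read 7.77, 6.78 and 7.38 in wild type, 7.80, 7.29 and 6.81 in APC mutant, 7.48, 7.56 and 7.42 in Olfm4 mutant, 8.19, 7.02 and 8.81 in adjacent and 10.79, 10.80 and 10.58 in tumour arrays. All 3 tumours stood above the highest other array, adjacent replicate 3. Krt14 was 2.72 higher than in adjacent tissue (SE 0.38, adjusted p = 0.00017) and 3.41 higher than in wild type (SE 0.38, adjusted p = 1.2e-05). Its second probe set rose by 2.95 (SE 0.48), and the third, which read 4.49 in adjacent and 4.78 in tumour tissue on average, differed by 0.28 and did not pass.

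Krt5, the type II partner of Krt14 in basal cells, did not move with it. It read 6.92, 6.51 and 6.22 in adjacent and 6.26, 6.56 and 6.26 in tumour arrays, a difference of -0.19 (95% interval -0.62 to 0.24, adjusted p = 0.54). The tumour and adjacent arrays overlap for Krt5, and the range over all 15 was 5.87 to 6.92.

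Krt17, a type I keratin of hair follicle sheath and activated epidermis, read 9.01, 7.33 and 7.98 in wild type, 9.27, 7.98 and 7.32 in APC mutant, 7.09, 7.82 and 7.42 in Olfm4 mutant, 7.44, 7.47 and 8.55 in adjacent and 10.20, 10.27 and 10.39 in tumour arrays. The tumours were tightly grouped and above all others, while wild type and APC mutant each held 1 high array, their replicate 1. Krt17 rose by 2.47 against adjacent tissue (SE 0.49, adjusted p = 0.0021) and by 2.18 against wild type (SE 0.49, adjusted p = 0.0024). With the spike-in covariate the first value was 2.29 with an adjusted p of 0.080, and a second, dim probe set (mean 3.65 in tumour arrays) differed by 0.25 and did not pass.

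Krt4 and Krt13 form the filaments of internal squamous linings such as the oesophagus. Krt4 read 5.75, 5.79 and 6.10 in wild type, 6.36, 5.89 and 6.10 in adjacent and 8.02, 7.48 and 7.83 in tumour arrays, and the single mutants lay between 5.36 and 5.77. It rose by 1.66 against adjacent tissue (SE 0.17, adjusted p = 1.4e-05), by 1.66 in each animal, and its second probe set rose by 1.48. Krt13 read 6.34, 5.87 and 6.62 in adjacent and 8.07, 7.72 and 7.38 in tumour arrays, and rose by 1.44 (SE 0.44, adjusted p = 0.025). Wild type replicate 3 at 8.002 reached the tumours for Krt13, and against wild type the difference of 0.80 did not pass. The Krt13 call against adjacent tissue was lost without adjacent replicate 1 or 2 or tumour replicate 1 or 2 (1.24 to 1.48). The other 2 Krt13 probe sets differed from adjacent tissue by 0.40 and 0.66 without passing. Against wild type they differed by 0.38 and 0.92, and the second passed (SE 0.28, limma adjusted p = 0.017 over probe sets). With the probe sets of a gene averaged, Krt13 passed against wild type.

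Krt15 and Krt16 each held 1 array far above the others of its group. Krt15, a type I keratin of basal and hair follicle stem cells, read 6.38, 5.78 and 5.80 in adjacent and 8.98, 7.10 and 6.26 in tumour arrays, so that tumour replicate 1 was high and replicate 3 lay within the adjacent range. Its difference of 1.46 (SE 0.55) had an adjusted p of 0.066, and of 0.025 (SE 0.42) with the replicate number as a block, where it joined the called members. Krt16, which pairs with Krt6 in activated epidermis, read 5.14, 6.42 and 9.81 in wild type, 5.98, 5.76 and 6.07 in adjacent and 7.26, 7.24 and 6.46 in tumour arrays. All 3 tumour arrays lay above all 3 adjacent arrays, by 1.28 in the first animal and 0.94 in the second. The fitted difference of 1.05 (SE 0.83) had an adjusted p of 0.40, and Krt16 passed with only the groups compared in the fit. The wild type array at 9.81, replicate 3, lay above all 14 others for Krt16, which read at most 7.26, and the same array was the highest of the non-tumour arrays for Krt13, Krt15 and Krt36.

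Krt78, a type II keratin, showed the opposite course to the rising members. It read 7.10, 7.28 and 7.15 in wild type, 6.93, 7.13 and 7.11 in APC mutant, 7.20, 7.24 and 7.23 in Olfm4 mutant, 7.71, 8.20 and 7.88 in adjacent and 6.81, 7.20 and 6.80 in tumour arrays. The adjacent arrays alone were high. Krt78 rose by 0.76 in adjacent tissue against wild type (SE 0.14, adjusted p = 0.0022) and by 0.88 against APC mutant (SE 0.14, adjusted p = 0.0024), and fell by 0.999 from adjacent to tumour tissue (SE 0.14, adjusted p = 0.00018). The remaining stratified members, Krt1, Krt2, Krt10, Krt12, Krt42, Krt76, Krt77 and Krt79, differed by -0.27 to 0.19 between tumour and adjacent tissue, and none passed.

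**Figure D3:**
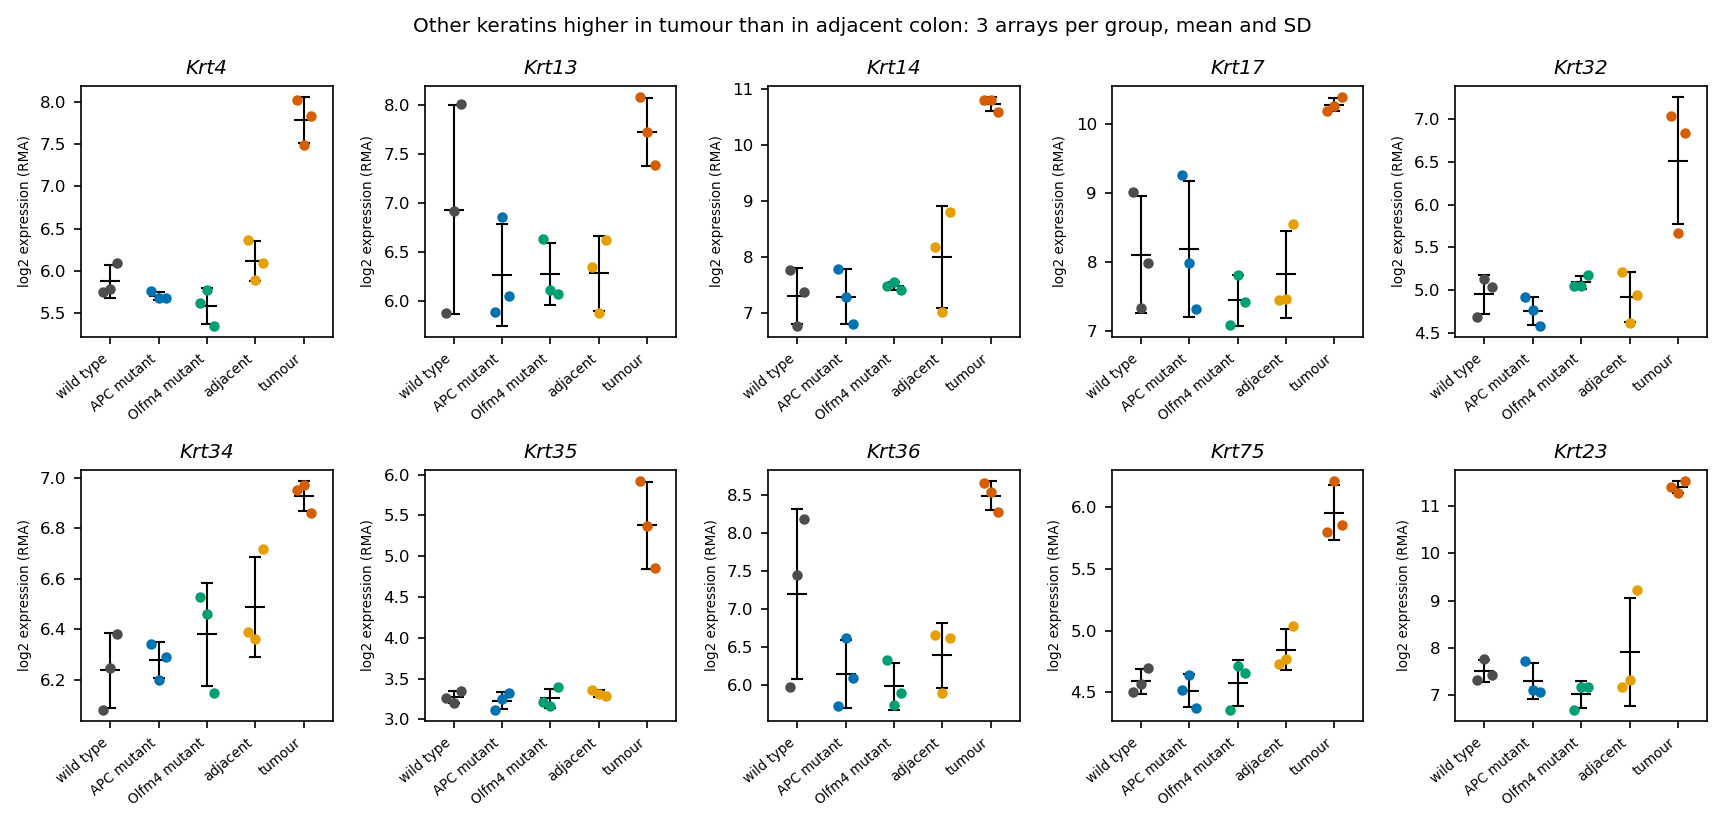
Log2 expression (RMA, y axis, a separate range for each gene) of the 10 stratified, hair and unclassed keratins that were higher in tumour than in adjacent colon, in 5 groups; points are the 3 arrays, the bar is the mean and the whiskers the SD. In each panel the 3 tumour arrays lie above the 3 adjacent arrays, and for Krt13 wild type replicate 3 at 8.002 reaches the tumour range.

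In tumour against adjacent tissue 28.1% of all genes passed, 14.3% higher and 13.8% lower. Of the 18 hair and root sheath keratins 5 (27.8%) rose there (Krt32, Krt34, Krt35, Krt36 and Krt75) and none fell at this threshold. The 4 type I hair keratins of these lie next to one another on chromosome 11 except for Krt31, which stands between Krt34 and Krt32. Krt35, made in the lower hair shaft, read between 3.12 and 3.39 on all 12 other arrays, close to the lowest values of the data, and 5.92, 5.37 and 4.85 in tumours. It was 4.16-fold higher than in adjacent tissue (log2 2.06, SE 0.20, adjusted p = 9.0e-06), by 2.55 in one animal and 1.81 in the other. Whether the 12 low values lie above background is not known here.

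Krt36, also a hair shaft keratin, read 6.66, 5.89 and 6.61 in adjacent and 8.65, 8.53 and 8.28 in tumour arrays. Wild type was spread from 5.98 to 8.18, so the groups did not overlap but came close. Krt36 rose by 2.10 against adjacent tissue (SE 0.44, adjusted p = 0.0028) and by 1.29 against wild type (SE 0.44, adjusted p = 0.026), and the second call was lost without wild type replicate 1 (0.68) or tumour replicate 1 or 2. With the spike-in covariate the difference from adjacent tissue was 1.85 with an adjusted p of 0.11.

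Krt32 read 5.21, 4.61 and 4.94 in adjacent and 7.04, 5.66 and 6.83 in tumour arrays, with tumour replicate 2 the lowest of its group and still above the 12 others. It rose by 1.59 (SE 0.29, adjusted p = 0.0010). Krt75, a type II keratin of the follicle's companion layer, read 4.73, 4.77 and 5.04 in adjacent and 5.80, 6.21 and 5.86 in tumour arrays and rose by 1.11 (SE 0.14, adjusted p = 8.8e-05). Krt34 read 6.39, 6.36 and 6.72 in adjacent and 6.95, 6.97 and 6.86 in tumour arrays. Its rise of 0.44 (SE 0.13, adjusted p = 0.024) was the smallest of the 11, and it was lost without adjacent replicate 1 or 2 or tumour replicate 1 or 2.

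The other 13 hair and root sheath members (Krt25, Krt26, Krt27, Krt28, Krt31, Krt71, Krt72, Krt73, Krt81, Krt82, Krt83, Krt84 and Krt86) differed by -0.35 to 0.15 between tumour and adjacent tissue, with adjusted p-values from 0.43. Krt81, Krt86 and Krt83, type II keratins of the hair shaft, were thus not among the members that rose. Krt75 was the only type II member of this class that rose in this comparison. Krt85, another type II hair keratin, is not among the members and was not read.

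Krt23, a type I keratin in no class here, had the largest change of the family. It read 7.33, 7.77 and 7.43 in wild type, 7.73, 7.11 and 7.07 in APC mutant, 6.70, 7.18 and 7.19 in Olfm4 mutant, 7.18, 7.33 and 9.23 in adjacent and 11.40, 11.27 and 11.52 in tumour arrays. The tumours lay close together, and adjacent replicate 3 was the highest of the other arrays, still below every tumour. Krt23 was 3.48 higher than in adjacent tissue (SE 0.42, adjusted p = 4.7e-05) and 3.89 higher than in wild type (14.8-fold, SE 0.42, adjusted p = 8.3e-06). The tumour minus adjacent value was 4.22 in the first animal and 3.11 in the second, which holds the raised adjacent array, and it was 2.85 (SE 0.61, adjusted p = 0.011) with the spike-in covariate.

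Krt80, a type II keratin of many differentiating epithelia, read 7.18, 6.92 and 7.54 in wild type, 9.14, 7.66 and 7.69 in adjacent and 8.72, 8.95 and 9.25 in tumour arrays. Adjacent replicate 1 reached the tumour range, so tumour minus adjacent was -0.42 in that animal and 1.42 in the other, and the fitted difference of 0.81 did not pass (adjusted p = 0.13). Against wild type Krt80 rose by 1.76 in tumour tissue (SE 0.37, adjusted p = 0.0015). Krt222, a short type I relative, read 5.64, 5.57 and 5.60 in adjacent and 4.99, 4.80 and 4.80 in tumour arrays and fell by 0.74 (SE 0.12, adjusted p = 0.00050), with a second probe set lower by 1.32. Krt24 and Krt88 differed by -0.10 and -0.07 and did not pass.

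Beyond the test, the arrays of tumour and adjacent tissue did not overlap for 13 members that were higher in tumour, against 23.6% of all genes, and for 4 that were lower, against 22.3%. In the fit with the replicate number as a block 16 members passed, the same 15 and Krt15.

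Against wild type colon the tumours again had 11 members higher and 4 lower, or 34.1% of the family, while 49.4% of all genes passed (29.3% higher and 20.1% lower). The 2 comparisons share the tumour arrays. Krt4 rose by 1.90, Krt14 by 3.41, Krt17 by 2.18, Krt32 by 1.56, Krt34 by 0.69, Krt35 by 2.11, Krt36 by 1.29, Krt75 by 1.36, Krt23 by 3.89, Krt80 by 1.76 and the root sheath keratin Krt26 by 0.30. Krt20, Krt19, Krt222 and the oral keratin Krt76 fell, the last by 0.50 (SE 0.14, adjusted p = 0.011). The Krt76 call was lost without wild type replicate 2, and that of Krt26 without wild type replicate 2 or 3 or tumour replicate 3. Arrays did not overlap for 15 members higher in tumour (33.3% of all genes) and 5 lower (21.9%). With the spike-in difference as a covariate 0 keratins and 1 gene of all passed in this comparison. The spike-in ranges of wild type (1.89 to 2.06) and tumour arrays (4.73 to 5.22) do not overlap, and the covariate's effect is carried across that gap.

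**Figure D4:**
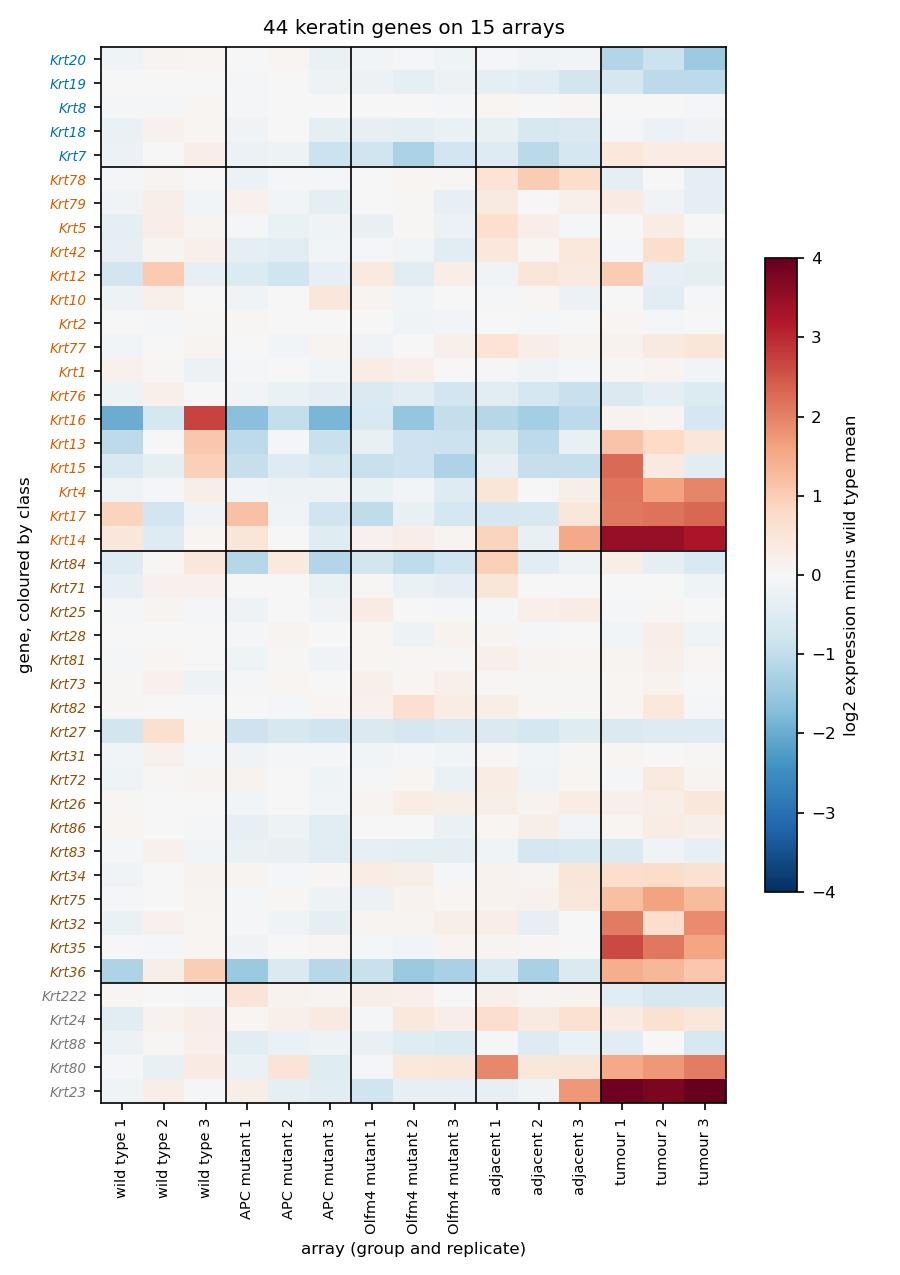
Log2 expression minus the wild type mean of each gene for 44 keratin genes (rows, by class) on 15 arrays (columns, by group and replicate), with red above and blue below the wild type mean and colours ending at 4 in either direction. Krt14 and Krt23 are deepest red in the 3 tumour columns, and Krt20 and Krt19 are blue there. The deepest red cell outside the tumour columns is Krt16 of wild type replicate 3, whose log2 level was 9.81 against a wild type mean of 7.12.

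In adjacent tissue 3 of the 5 simple keratins fell. Against wild type 7 of 44 members passed (15.9%, against 27.8% of all genes), 2 higher (17.7% of all genes) and 5 lower (10.1%). Krt7, Krt18 and Krt19 fell by 0.76, 0.51 and 0.51, while Krt8 differed by 0.05 and Krt20 by -0.11 without passing. Krt18 fell 1.42-fold (SE 0.14, adjusted p = 0.017). Of the others Krt76 fell by 0.69 (SE 0.14, adjusted p = 0.0043), from 6.66, 7.06 and 6.84 to 6.39, 6.14 and 5.96, and the hair keratin Krt83 fell by 0.50 (SE 0.15, adjusted p = 0.027). Krt78 rose as given above, and Krt24, a type I keratin, rose by 0.57 (SE 0.18, adjusted p = 0.037), from 5.40, 5.97 and 6.10 to 6.52, 6.19 and 6.44.

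This comparison depended on single arrays. Without wild type replicate 2 the count was 4 and without adjacent replicate 3 it was 3, and Krt76 and Krt78 passed with any array left out. Krt18 was lost without wild type replicate 2 or 3 or adjacent replicate 2 or 3, Krt19 without adjacent replicate 3, Krt83 without wild type replicate 2 or adjacent replicate 2 or 3, and Krt24 without wild type replicate 1 (0.35) or 2 or adjacent replicate 1 or 3. With the spike-in covariate 0 keratins passed, as did 0 of all genes. The markers of colon epithelium also moved here: 4 of 10 fell (against 10.1% of all genes), among them Cldn7 by 1.16 and Cdx1 by 1.20. The mean level of these markers ran from 12.94 to 13.08 in wild type and from 12.54 to 12.57 in adjacent arrays. Whether the simple keratins follow these markers was not tested.

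In the single mutants few keratins passed. In Olfm4 mutant against wild type colon 2 members fell, Krt7 and Krt76, and 0 rose (4.55% of the family, with 7.92% of all genes called and 2.5% lower). Krt76 read 6.29, 6.40 and 6.09 and fell by 0.59 (SE 0.14, adjusted p = 0.030). The count was 4 without wild type replicate 1, adding Krt27 and Krt36, 1 without Olfm4 mutant replicate 1, and 0 without any other array of either group. In APC mutant against wild type colon 0 members passed by limma, as did 0 of all genes (0%), with 4 keratins at an unadjusted p under 0.05. The range over members was -1.49 for Krt16, with the high wild type array at 9.81, to 0.25 for Krt222, and without wild type replicate 1 Krt27 and Krt36 passed.

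In adjacent tissue against APC mutant colon 3 of 44 members passed (6.82%, against 17.3% of all genes), 2 higher (9.88% of all genes) and 1 lower (7.45%). These were Krt78, the hair keratin Krt86, which rose by 0.38 (SE 0.12, adjusted p = 0.045), and Krt19, which fell by 0.41 (SE 0.13, adjusted p = 0.042). Krt78 passed with any array left out. Krt86 was lost without APC mutant replicate 1, 2 or 3 or adjacent replicate 1 or 2 (adjusted p up to 0.15), and Krt19 without APC mutant replicate 1 or 2 or adjacent replicate 2 or 3 (adjusted p up to 0.16). Both were also lost under cyclic loess (adjusted p of 0.11 for Krt86 and 0.051 for Krt19), with only the groups compared (0.11 and 0.095), with animal as a random block (0.090 and 0.079), with the arrays of an animal averaged (0.082 and 0.099) and with the spike-in covariate. Against Olfm4 mutant colon 0 members passed by limma, with 0.044% of all genes called and 5 keratins at an unadjusted p under 0.05, and differences ran from -0.26 to 0.96. Krt78 passed there without Olfm4 mutant replicate 2. The interaction set Olfm4 loss beside the APC mutation against Olfm4 loss alone, and adjacent tissue stood for the double mutant. Adjacent tissue lies next to a tumour. Its mean spike-in difference was 4.10, against 1.99 to 2.64 in wild type and the single mutants. Genotype cannot be told apart from these in the interaction, so it cannot decide whether losing Olfm4 acts differently beside the APC mutation. The interaction called 0 keratins and 0 genes of all (0%), with 8 keratins at an unadjusted p under 0.05. Krt27 passed there without wild type replicate 1.

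Other genes of keratin filaments and squamous cells were read from fixed lists. Of 22 partners that anchor or link keratin filaments, 5 rose and 2 fell in tumour against adjacent tissue (31.8%, near the 28.1% of all genes). The desmosomal cadherin Dsc3 of stratified epithelia rose by 3.79 (SE 0.33, adjusted p = 4.5e-06), from 5.57, 5.93 and 5.57 to 8.78, 9.72 and 9.95. The linker periplakin (Ppl) rose by 1.81 and the hemidesmosome collagen Col17a1 by 1.35, while the linkers Dst and Plec fell by 1.39 and 0.58. Desmoplakin (Dsp), the main anchor of keratins at desmosomes, differed by 0.03 and did not pass.

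Of 20 squamous markers 3 rose and 3 fell (30.0%, against 28.1% of all genes). The transcription factor Grhl1 rose by 1.86 (SE 0.23), the secreted Dmkn by 1.51 (SE 0.31) and the cross-linking enzyme Tgm1 by 0.63 (SE 0.12), while its relative Tgm3 fell by 2.76 (SE 0.31). The serpin Serpinb5 fell by 0.83 (SE 0.17) and the transcription factor Klf5, which the gut epithelium also makes, fell by 0.47 (SE 0.16). Trp63, the factor that defines basal squamous cells, read 5.07, 5.18 and 5.06 in adjacent and 5.13, 5.87 and 5.14 in tumour arrays, a difference of 0.28 (SE 0.17, adjusted p = 0.25). The cornified envelope genes Ivl, Lor and Flg differed by -0.27, -0.06 and -0.16 and did not pass. The mean level of the 20 ran from 7.26 to 7.53 in adjacent and from 7.20 to 7.42 in tumour arrays.

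Of 10 hair and skin markers 2 passed (20%, against 28.1% of all genes), both higher (14.3% of all genes). The homeobox factor Dlx3 rose by 3.19 (SE 0.39, adjusted p = 5.2e-05) and the Wnt effector Lef1 by 2.76 (SE 0.31, adjusted p = 3.2e-05). Lef1 is also made in many tissues with Wnt signalling. Tchh, Foxn1, Hoxc13 and Msx2, which belong to the hair follicle, differed by -0.55, -0.22, -0.04 and -0.03 and did not pass. The mean of the 10, which includes Dlx3 and Lef1, ran from 5.71 to 5.87 in adjacent and from 6.27 to 6.32 in tumour arrays. The median difference over the 10 was 0.0006.

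Markers of other cell types moved in the same comparison, in which 13.8% of all genes were lower. All 8 smooth muscle markers fell in tumour against adjacent tissue, with a median of -3.38, and their mean level ran from 12.03 to 12.54 in adjacent and from 8.41 to 10.18 in tumour arrays. Of 10 colon epithelium markers 7 fell, of which Cdx2 fell by 2.74 and Cdx1 fell by 2.20. The epithelial adhesion genes Epcam and Cdh1 differed by -0.12 and 0.0019 and did not pass. Of 7 mesothelium markers 3 fell. In such bulk RNA fewer cells of a type and less RNA per cell cannot be told apart, and the part of these shifts in the keratin values was not tested..

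**Figure D5:**
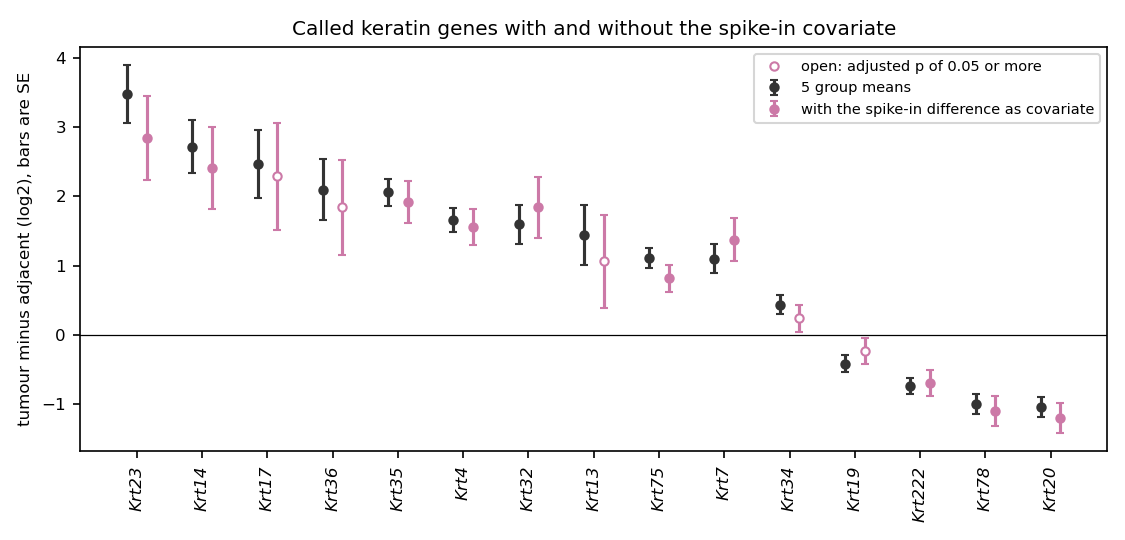
Tumour minus adjacent log2 difference (y axis) with its SE for the 15 keratin genes called (x axis), from the fit with 5 group means (dark) and from the same fit with the spike-in difference as a covariate (pink); open points have an adjusted p of 0.05 or more. All 15 keep their sign, and Krt19, Krt13, Krt17, Krt34 and Krt36 lose the call. The spike-in difference does not overlap between tumour and adjacent arrays, so the covariate's effect, read within groups, is carried across a gap.

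The spike-in difference ran from 3.91 to 4.45 in adjacent and from 4.73 to 5.22 in tumour arrays. These ranges do not overlap. A fit with this covariate reads the covariate's effect from differences within groups and carries it across the gap between tissues. Whether that effect holds across the gap was not tested. In that fit 10 of the 15 called members passed in tumour against adjacent tissue. Krt7 was then 1.37, Krt20 -1.20, Krt4 1.56, Krt14 2.41, Krt32 1.85, Krt35 1.92, Krt75 0.82, Krt78 -1.11 and Krt222 -0.70. The SE of Krt14 grew from 0.38 to 0.59. Krt19, Krt13 and Krt34, which lost the call, were -0.23, 1.06 and 0.24.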

How the data were processed

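Total RNA of mouse colon was labelled with biotin and hybridised to Affymetrix Mouse430_2 arrays, 15 in all. The authors deposited log2 expression values. The submitters' processing notes list RMA and Partek 6.5. RMA brings all arrays to 1 distribution, so a shift of most genes in one direction is largely removed. A range of 2.56 to 14.96 fits a log2 scale. Detection calls are not used here. The number of arrays limits the precision.

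Of 45101 probe sets 64 are controls, 34945 have 1 gene symbol in the platform annotation, 932 several and 9160 none. The last 2 kinds were not used, and the probe set with the highest mean was kept for each of 18193 genes. Group means of all 5 groups were estimated jointly for every gene by limma 3.58.1 (R 4.3.3, lmFit then eBayes), with 8 contrasts and Benjamini-Hochberg adjustment over all genes within each. A gene was called at an adjusted p under 0.05, and adjusted p-values of genes are limma's throughout. The fit was tested on simulated data in which all arrays were independent, so that test does not cover arrays that share an animal. The titles do not show separate animals for all arrays of a group, so p-values measure the spread between these samples, which may be technical in part, and arrays of 1 animal are not independent.

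The members, classes and gene lists were chosen with earlier results of these data known. The rule for naming genes took all simple keratins, every other keratin called in any contrast up to 20, and up to 6 called genes of each other list. Of the listed genes, Dsp, Trp63, Ivl, Lor, Flg, Epcam, Cdh1, Tchh, Foxn1, Hoxc13, Msx2 and those keratins named without a call stand outside it as named defining markers or partners, chosen after their values were seen. By their titles, adjacent and tumour arrays with 1 number share an animal. Their deviations from the group means correlated at 0.28, -0.016 and 0.18 for pairs 1 to 3, and the titles do not say which pieces of the second animal belong together. Other settings tried were averaging the probe sets of a gene, a filter at the median mean, cyclic loess, a trend and robust prior, the spike-in covariate, animal as a random block, the replicate block, only the groups compared, each array left out, and, added after the data were seen, arrays of an animal averaged. Promoter windows came from RefSeq on GRCm38.p6.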

Additional observations from a re-analysis of the deposited data

How the results depend on the processing

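In tumour against adjacent tissue the 15 called keratins kept their sign under every alternative that could be run for them. The count was 15 with the mean of all probe sets, 15 with cyclic loess (14 of the same, with Krt18 in place of Krt19), 15 with a trend and robust prior (14 of the same, with Krt18 in place of Krt34), 15 with only the groups compared (14 of the same, with Krt16 in place of Krt19), 10 with the spike-in covariate, 12 with the arrays of an animal averaged, 16 with the replicate block, which added Krt15 and changed no other call of a keratin, and 17 with animal as a random block. Single arrays left out gave 12 to 15. Only genes above the median mean left 5 members, all simple keratins, and counts of 3 in tumour against adjacent tissue, 2 in tumour against wild type, 3 in adjacent against wild type, 1 in adjacent against APC mutant and 1 in Olfm4 mutant against wild type; fewer genes tested is the construction of that filter. The spike-in covariate gave 0 calls in tumour against wild type, adjacent against wild type, adjacent against APC mutant and Olfm4 mutant against wild type, and turned Krt24 in adjacent against wild type to -0.28. With only the groups compared in the fit, adjacent against wild type gave 4 and Olfm4 mutant against wild type 0. Animal as a random block gave 1 in adjacent against APC mutant, and averaged arrays gave 3 in adjacent against wild type and 1 in adjacent against APC mutant. The cause of these differences was not tested.

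Leaving out single arrays gave 3 to 10 in adjacent against wild type, 1 to 3 in adjacent against APC mutant, 0 to 1 in adjacent against Olfm4 mutant, 0 to 4 in Olfm4 mutant against wild type, 0 to 2 in APC mutant against wild type, 0 to 1 in the interaction and 13 to 17 in tumour against wild type. Over all genes the spike-in covariate gave 2144 in tumour against adjacent tissue in place of 5112, 1 in place of 8996 in tumour against wild type, 0 in place of 5056 in adjacent against wild type, 0 in place of 3154 in adjacent against APC mutant and 20 in place of 1440 in Olfm4 mutant against wild type. The filter at the median gave 3329 and 5898 in the tumour comparisons, and averaged arrays gave 3286, 3360, 1651 and 824 in tumour against adjacent, adjacent against wild type, adjacent against APC mutant and Olfm4 mutant against wild type. With only the groups compared adjacent against wild type gave 3184 and Olfm4 mutant against wild type 33. In adjacent against Olfm4 mutant the 8 genes became 135 with the filter, 46 with cyclic loess, 81 with the trend and 774 without Olfm4 mutant replicate 2, and 0 with the covariate, 1 with only these groups and 0 without Olfm4 mutant replicate 3. Single arrays left out gave 279 to 2236 genes in Olfm4 mutant against wild type, up to 188 in APC mutant against wild type and up to 93 in the interaction, the last 2 without wild type replicate 1, and as few as 1578 in adjacent against APC mutant. Cyclic loess moved the median of all genes in tumour against wild type from 0.11 to 0.071 and that in adjacent against wild type from 0.13 to 0.086. Signal over background is unknown for the dim members.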

Other observations

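Keratin genes outside the symbol rule were read from their probe sets and named after their values were seen. Krt6a, the type II partner of Krt16 and Krt17 in activated epidermis, carries a letter in its symbol and was not counted. One of its probe sets rose by 3.34 in tumour against adjacent tissue (SE 0.34, adjusted p = 2.3e-05 over probe sets), from a mean of 5.06 to 8.39, another rose by 1.11 (SE 0.17, adjusted p = 0.00044), and the third differed by 0.26 (adjusted p = 0.36). Krt6b differed by -0.50 (SE 0.97), the hair keratin Krt33b by 0.51 (SE 0.19, adjusted p = 0.085) and Krt33a by 0.22 (SE 0.14), and none of these passed.

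Filaments other than keratins also differed between tumour and adjacent tissue. Of 14 other intermediate filament genes 3 rose and 6 fell (64.3%, with 28.1% of all genes called), and Des and Synm among them are also smooth muscle markers. The nuclear lamin Lmnb1 rose by 0.97 (SE 0.11), nestin (Nes) by 1.18 (SE 0.24) and vimentin (Vim) by 0.49 (SE 0.11). The muscle filament desmin (Des) fell by 4.37 and synemin (Synm) fell by 4.24. The neuronal Nefl fell by 2.597, Prph fell by 2.303 and Nefm fell by 0.74, and the glial Gfap fell by 1.09. In adjacent against wild type colon 0 of the 14 passed by limma.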
